A study of Mus musculus with 30 samples.

Results

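The 8 genes described here, Retnla, Chil3, Mgl2, Clec10a, Il10, Arg1, Il4ra and Tgm2, are genes by which macrophages activated through interleukin-4 (IL-4) are commonly recognised, together with the cytokine gene Il10. They were chosen by name, with earlier results of these data known, and all 8 were found among the 14118 genes of the deposited count matrix. The shares of all genes set beside them below are therefore a description and not independent support. The matrix holds 30 bulk RNA-seq libraries, 5 from each of 6 cell populations that were isolated by flow cytometry from mammary adenocarcinomas of FVB/N mice that carry the MMTV-PyVT transgene. In these mice the promoter of the mouse mammary tumour virus drives the polyoma middle T antigen in mammary epithelium, and all 6 populations, including those set against each other here, came from such tumours at a volume of 750 mm3. Each of the 5 tumours, numbered 5, 6, 8, 10 and 11, came from its own mouse and gave all 6 populations. The labels give no age for the mice.

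Macrophages were sorted as CD45-positive and F4/80-positive cells and divided by CD206, the mannose receptor encoded by Mrc1, and by MHC class II. Those called CD206hi below were CD206-positive with low MHC class II, those called CD206pos were CD206-positive with high MHC class II, and those called CD206neg were CD206-negative with low MHC class II. The endothelial sort took CD31-positive cells without CD45. Cancer-associated fibroblasts (CAFs) were negative for CD45 and CD31 and positive for CD90, with CD34-negative cells called CAF1 and CD34-positive cells called CAF2.

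IL-4 and IL-13 act on macrophages through receptors that share the IL-4 receptor alpha chain, encoded by Il4ra, and signal mainly through the transcription factor STAT6. In mouse macrophages this programme raises Retnla, which encodes the secreted resistin-like molecule alpha, Chil3, which encodes a chitinase-like lectin also known as Ym1, and Arg1, the arginase that turns arginine into ornithine and urea. It also raises the galactose-type lectins CD301a and CD301b, encoded by Clec10a and Mgl2, and the protein cross-linking enzyme transglutaminase 2, encoded by Tgm2. Il10 encodes an anti-inflammatory cytokine that macrophages make after many stimuli, of which IL-4 alone is not the usual one.

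The 8 genes lie on 7 chromosomes in GRCm38.p6, the assembly also known as mm10. Retnla is at chr16:48842609-48844461 on the plus strand, Chil3 at chr3:106147554-106167564 on the minus strand, Il10 at chr1:131019845-131024970 on the plus strand and Arg1 at chr10:24915207-24927470 on the minus strand. Il4ra is at chr7:125552271-125579474 on the plus strand and Tgm2 at chr2:158116405-158146392 on the minus strand. Mgl2 (chr11:70130125-70137542) and Clec10a (chr11:70166623-70170836) are neighbours on the plus strand of chromosome 11, with 29080 bases between them and 0 annotated genes starting in that gap.

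RefSeq promoter windows of GRCm38.p6, which run over 250 bases before and 50 bases from a gene start, were found for 4 of the 8 genes. The windows of Retnla and Chil3 are printed because these members had the largest fitted differences between CD206hi and CD206pos macrophages. Capitals mark matches, on either strand, to any of 4 motifs: a STAT6-type palindrome with a spacer of 4 bases (TTCNNNNGAA), a STAT-type palindrome with a spacer of 3 (TTCNNNGAA), a PU.1 core (AGGAAGT, whose reverse complement is ACTTCCT) and a C/EBP-type motif (TTGCNNAA).
Retnla, chr16:48842359-48842658, plus strand: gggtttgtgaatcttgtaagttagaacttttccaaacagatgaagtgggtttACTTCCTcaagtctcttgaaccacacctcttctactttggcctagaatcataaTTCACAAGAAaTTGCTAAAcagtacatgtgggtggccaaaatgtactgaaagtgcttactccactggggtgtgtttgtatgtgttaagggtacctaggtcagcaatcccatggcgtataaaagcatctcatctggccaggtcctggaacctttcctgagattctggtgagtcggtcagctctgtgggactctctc
Chil3, chr3:106167515-106167814, minus strand: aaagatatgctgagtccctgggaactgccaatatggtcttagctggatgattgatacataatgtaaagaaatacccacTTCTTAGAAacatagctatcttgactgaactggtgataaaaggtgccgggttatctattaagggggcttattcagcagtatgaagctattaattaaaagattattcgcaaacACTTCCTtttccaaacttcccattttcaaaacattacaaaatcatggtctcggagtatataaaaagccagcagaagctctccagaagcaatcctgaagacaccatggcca
The Retnla window held the STAT6-type match TTCACAAGAA from 145 bases upstream of the start, the C/EBP-type match TTGCTAAA from 134 bases upstream and a PU.1 core from 198 bases upstream, and these 3 do not overlap. The Chil3 window held the spacer-of-3 match TTCTTAGAA from 172 bases upstream and a PU.1 core from 60 bases upstream. Mgl2's window, most of which lies inside the annotated gene, held a PU.1 core, and the Il4ra window held none of the 4. Of 32851 promoter windows of the same length, 6.95% held TTCNNNNGAA, 8.30% TTCNNNGAA, 9.35% AGGAAGT and 10.8% TTGCNNAA. These matches describe letters in the windows, not binding.

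Library totals were 6292411 to 11957076 counts, so 3 counts, which is the 95% upper bound that a count of 0 allows, correspond to 0.251 to 0.477 CPM (counts scaled to a total of 1000000 per library). The sort showed in the RNA: Mrc1 averaged 989.7 ± 301 CPM in CD206hi, 1206 ± 537 CPM in CD206pos and 67.8 ± 32.7 CPM in CD206neg macrophages (SD, n = 5 each). The macrophage marker list, 11 of 11 genes measured, summed to 18760 to 38380 CPM over the macrophage libraries and to 69.2 to 215 CPM over the endothelial and CAF libraries. MHC class II did not follow the label everywhere. H2-Aa, an MHC class II chain, stood at 7874 and 2778 CPM in the CD206neg libraries of tumours 6 and 8, which the deposited columns name MHC class II high and the labels MHC class II low. It stood at 20.2 to 391 CPM in the other CD206neg libraries. The labels were followed, and the tests of members, the list counts, the overlaps between groups and the correlations that rest on CD206neg were also computed without those 2 libraries.

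By mean CPM, Retnla, Mgl2, Clec10a and Il10 were highest in CD206pos, next in CD206hi and lowest of the macrophages in CD206neg. The CD206hi and CD206pos ranges of Retnla, Clec10a and Il10 overlapped, while those of Mgl2 did not, and below them Retnla and Clec10a alone of the 4 left a gap between CD206hi and CD206neg. Chil3 was also highest in CD206pos, apart from all other groups, and CD206hi and CD206neg overlapped. Il4ra and Arg1 were highest in CD206hi and Tgm2 in CD206neg, with overlap between every pair of neighbours in their orders. Outside macrophages Il4ra, Tgm2 and Arg1 alone reached more than 4 CPM in any library. With TMM-scaled CPM, CAF1 and endothelial cells changed places for Retnla and Clec10a, and CD206neg and CAF2 for Il4ra, and no other order of the 8 genes changed.

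**Figure D1:**
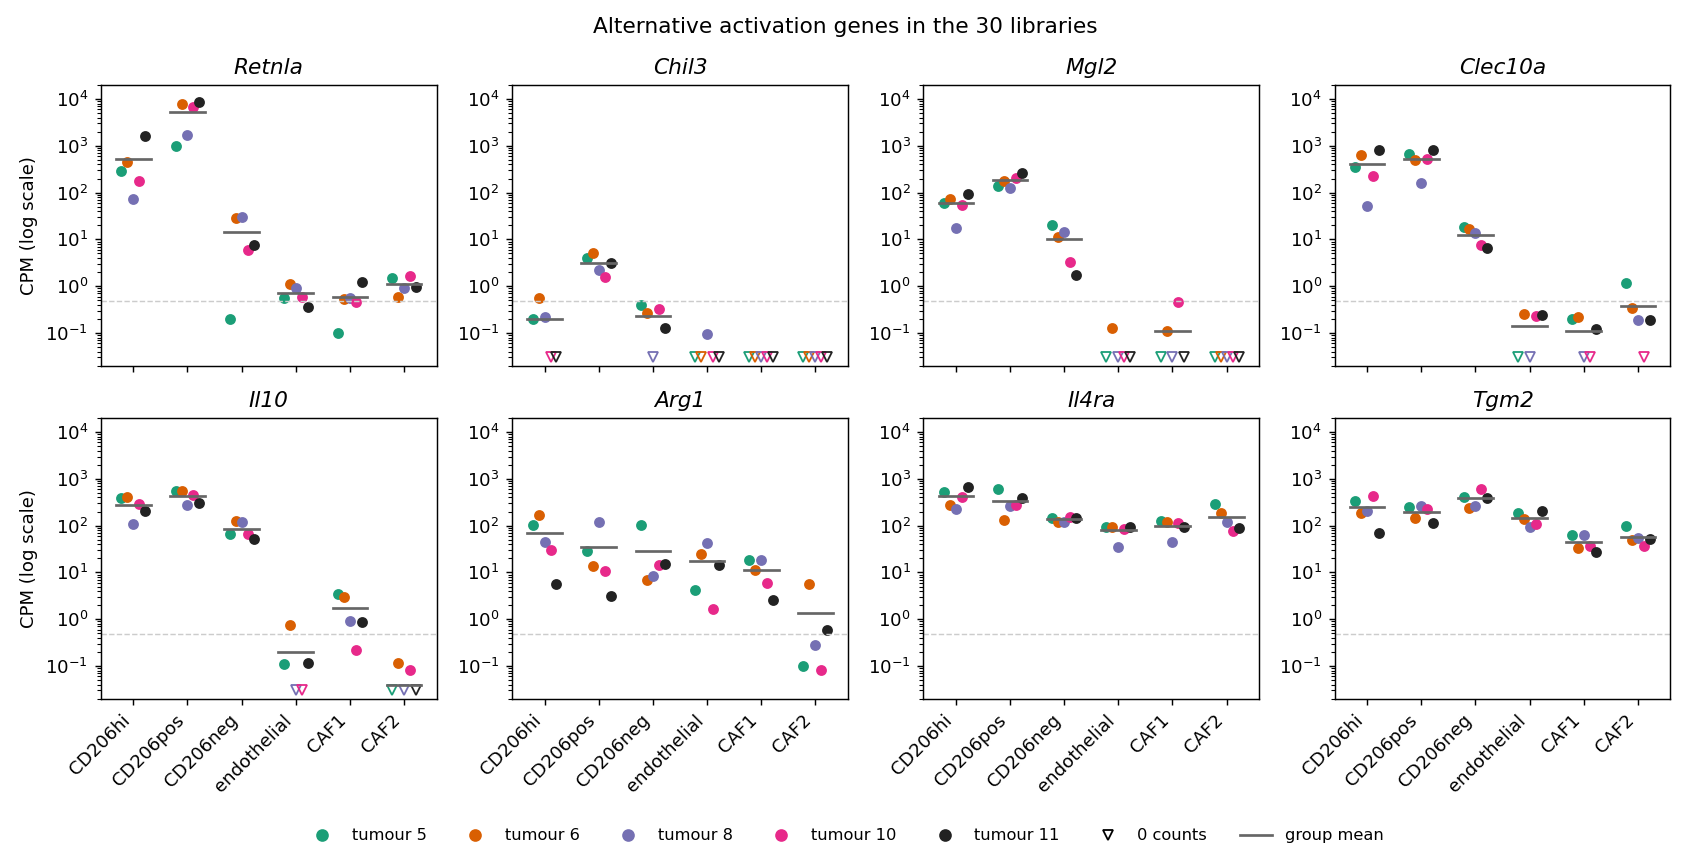
CPM (log axis) of each gene in all 30 libraries, by population, with points coloured by tumour, open triangles for 0 counts, grey bars for group means of at least 0.03 CPM and a dashed line at the highest 3-count limit, 0.477 CPM. Retnla reaches 986 to 8675 CPM in the 5 CD206pos libraries and stays at or below 30.8 CPM in all CD206neg libraries, whereas Tgm2 is at 237 to 617 CPM in CD206neg.

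On the scale of RPKM, which divides CPM by the exon length in kilobases, so that levels of different genes can be compared, Retnla led the 8 genes in both CD206-positive populations. It averaged 870 RPKM in CD206hi and 8760 RPKM in CD206pos. Il10 came next, with 213 RPKM in CD206hi and 326 RPKM in CD206pos, followed by Clec10a with 142 and 182 RPKM in the same populations. By mean CPM Clec10a was above Il10, at 412 against 278 in CD206hi and 529 against 427 in CD206pos. Their RPKM order thus rests on the exon lengths used, 2899 bases for Clec10a and 1310 bases for Il10. The RPKM order was another one in CD206neg, where Tgm2 led at 83.6 RPKM, Il10 had 65.7 RPKM and Retnla had 24.6 RPKM. Chil3 was the lowest of the 8 in every macrophage population, at 0.12 RPKM in CD206hi, 1.96 RPKM in CD206pos and 0.138 RPKM in CD206neg.

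The first comparison asked how CD206hi macrophages differ from CD206neg ones, both labelled low for MHC class II. Of the 8 genes, all of which were tested, 5 rose in CD206hi and 0 fell, with Retnla, Clec10a, Mgl2, Il4ra and Il10 called (quasi-likelihood test of edgeR, threshold 0.05 on p-values adjusted by Benjamini-Hochberg over 11052 genes). Over all genes 6.14% were called higher and 3.90% lower. The median log2 fold change was 1.46 for the 8 genes and 0.0186 for all genes tested. CPM of 3 of the 8 did not overlap between the groups, against 6.66% of all genes. Without the CD206neg libraries of tumours 6 and 8, 4 of the 8 rose, Il4ra no longer passing, where 2.91% of all genes were called higher, and 4 did not overlap, against 8.944% of all genes.

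Of the 3 macrophage comparisons, CD206pos against CD206neg had the largest median difference over the 8 genes. Here 5 of the 8 rose in CD206pos, Retnla, Clec10a, Mgl2, Chil3 and Il10, and Tgm2 fell. Chil3 had passed the filter on low counts only through CD206pos, the group where it is high. Over all genes 8.85% were called higher and 5.85% lower. The median log2 fold change was 2.88 for the 8 genes and 0.0181 for all genes, and 5 of the 8 did not overlap, against 7.30% of all genes. Without the same 2 CD206neg libraries 5 rose and 1 fell, where 4.84% of all genes were called higher and 3.27% lower, and 6 did not overlap, against 10.04% of all genes. Both comparisons use the same CD206neg libraries, so they are not independent of each other.

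CD206hi and CD206pos, both sorted as CD206-positive and differing in MHC class II, were much closer. Only Chil3 fell in CD206hi, with 0 of the 8 higher, where 0.00905% of all genes were called higher and 0.181% lower. Here too Chil3 had been kept by the filter through CD206pos alone. The median log2 fold change was -0.48 for the 8 genes and 0.0023 for all genes, and 2 of the 8, Chil3 and Mgl2, did not overlap, against 0.769% of all genes. In bulk libraries fewer cells that express a gene and less RNA of it per cell cannot be told apart.

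**Figure D2:**
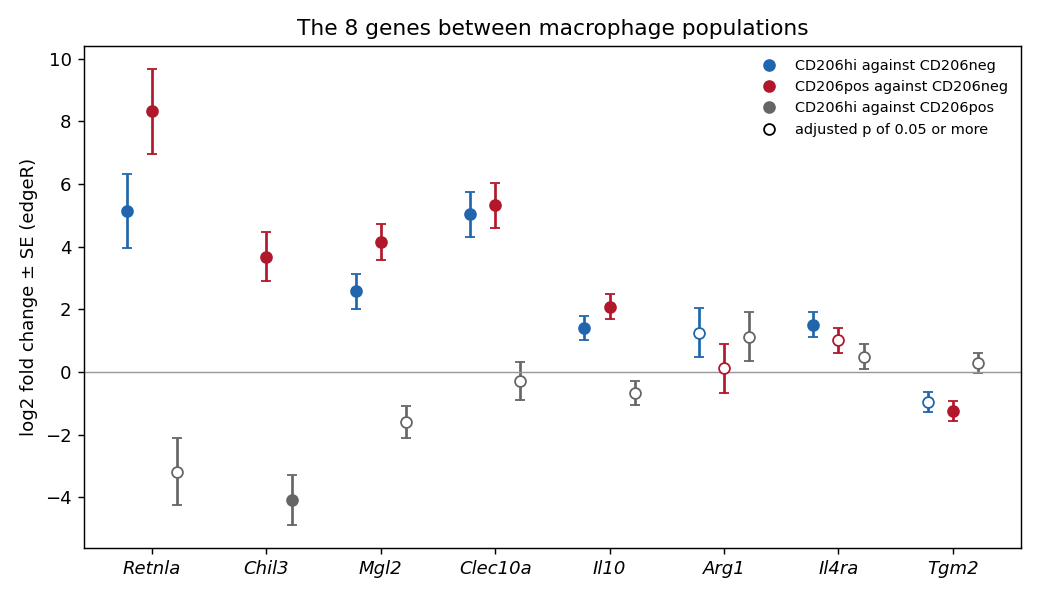
Log2 fold changes with their standard errors for the 8 genes in the 3 macrophage comparisons, filled where the adjusted p is under 0.05; Chil3 in CD206hi against CD206neg is left out because both groups lie near the 3-count limit. Retnla and Clec10a lie at 5.03 to 8.32 against CD206neg, and Tgm2 is the one gene with both values against CD206neg below 0.

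Retnla, the secreted resistin-like factor, had the widest range of the 8 genes. In CD206hi macrophages it stood at 285 CPM in tumour 5, 452 in tumour 6, 72.6 in tumour 8, 177 in tumour 10 and 1618 in tumour 11. The CD206pos libraries of the same tumours, in that order, had 986, 8018, 1669, 6880 and 8675 CPM. CD206neg had 0.202, 29.1, 30.8, 5.89 and 7.53 CPM. Every CD206hi and every CD206pos library lay above every CD206neg library, while the CD206hi library of tumour 11 lay above the CD206pos library of tumour 5. Within a tumour CD206pos exceeded CD206hi in 5 of 5, by 3.46-fold in tumour 5, 5.36-fold in tumour 11, 17.7-fold in tumour 6, 23.0-fold in tumour 8 and 38.9-fold in tumour 10.

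Against CD206neg, Retnla rose by 5.14 ± 1.18 on the log2 scale in CD206hi (edgeR adjusted p = 0.00782) and by 8.32 ± 1.36 in CD206pos (adjusted p = 0.000505). For log2 fold changes ± is the standard error throughout. The CD206hi rise rested in part on tumour 11: without its libraries it was 3.43 with an adjusted p of 0.0876. Between CD206hi and CD206pos the log2 fold change was -3.18 ± 1.07 with an adjusted p of 0.427, so it did not pass the test although the direction held in 5 of 5 tumours.

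Within CD206pos, Retnla was low in tumours 5 and 8 and 4 or more times higher in the other 3, and H2-Aa had the same division. H2-Aa stood at 533 CPM in tumour 5 and 2058 CPM in tumour 8, and at 5296 to 6590 CPM in tumours 6, 10 and 11. In CD206neg the libraries of tumours 6 and 8, whose H2-Aa values are given above, also had the most Retnla of their group, 29.1 and 30.8 CPM, where the other 3 had 0.202 to 7.53 CPM. CD206hi libraries had 13.8 to 92.6 CPM of H2-Aa and more Retnla than any CD206neg library. The part that the MHC class II gate takes in the Retnla levels was not tested.

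**Figure D3:**
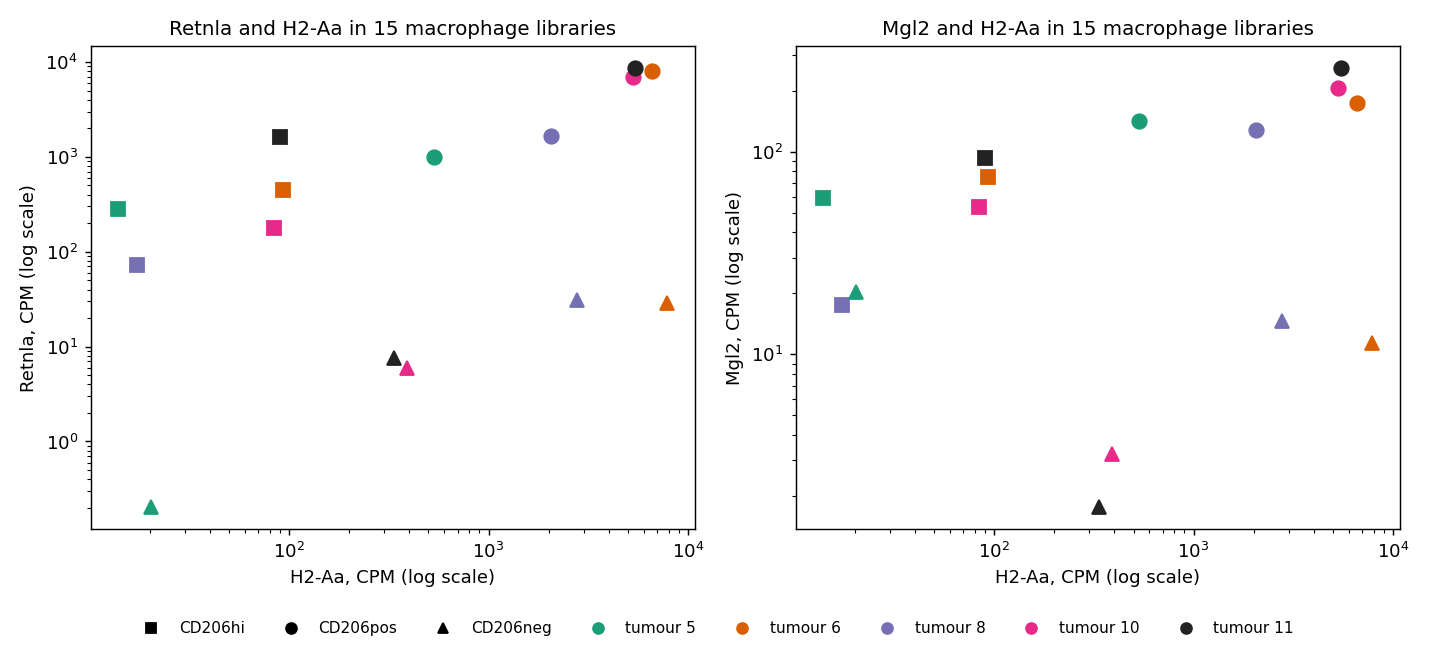
Retnla (left) and Mgl2 (right) against H2-Aa, all in CPM on log axes, in the 15 macrophage libraries, with symbols for population and colours for tumour. CD206pos libraries (circles) lie at the upper right, CD206hi libraries (squares) have at most 92.6 CPM of H2-Aa, and the CD206neg libraries (triangles) of tumours 6 and 8 combine 7874 and 2778 CPM of H2-Aa with 29.1 and 30.8 CPM of Retnla.

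Chil3, the chitinase-like lectin Ym1, was detected above the 3-count limit mainly in CD206pos, and at low levels. CD206pos libraries had 3.94, 5.24, 2.20, 1.57 and 3.08 CPM in tumours 5, 6, 8, 10 and 11, which are 38, 33, 19, 13 and 29 counts. CD206hi libraries had at most 0.559 CPM and CD206neg libraries at most 0.405 CPM, each no more than 4 counts. The CD206pos group overlapped with neither of the others. The fitted log2 fold change was 3.68 ± 0.776 for CD206pos against CD206neg (edgeR adjusted p = 0.00383) and -4.09 ± 0.792 for CD206hi against CD206pos (adjusted p = 0.0376). At such counts the fitted sizes depend on the prior count. Only the CD206pos libraries took Chil3 past the filter on low counts, so neither call is independent of that filter. The second call was lost without any 1 of CD206hi of tumours 5, 8, 10 or 11, CD206pos of tumours 6, 10 or 11, or any whole tumour (adjusted p between 0.0581 and 0.334 in these 12), with the direction kept.

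Mgl2 and Clec10a, the paralogous galactose-type lectins CD301b and CD301a, rose in both CD206-positive populations against CD206neg. Mgl2 stood at 59.0, 74.6, 17.5, 53.6 and 92.8 CPM in CD206hi of tumours 5, 6, 8, 10 and 11, at 141, 175, 128, 207 and 259 CPM in CD206pos, and at 20.2, 11.4, 14.5, 3.22 and 1.76 CPM in CD206neg. CD206pos lay above both other groups in every library, and CD206hi of tumour 8 lay within the CD206neg range. Mgl2 rose by 2.57 ± 0.546 in CD206hi (edgeR adjusted p = 0.00452) and by 4.16 ± 0.58 in CD206pos (adjusted p = 0.000128), both log2 against CD206neg. CD206pos exceeded CD206hi in 5 of 5 tumours, by 2.34-fold to 7.29-fold, yet the fitted log2 fold change of CD206hi against CD206pos, -1.59 ± 0.516, had an adjusted p of 0.398.

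Clec10a stood at 346, 632, 52.6, 222 and 806 CPM in CD206hi, at 664, 499, 161, 516 and 804 CPM in CD206pos, and at 18.0, 16.7, 13.6, 7.67 and 6.40 CPM in CD206neg, with tumours in the same order. Both CD206-positive groups lay wholly above CD206neg and overlapped with each other, and tumour 8 was lowest in both. Clec10a rose by 5.03 ± 0.72 in CD206hi (edgeR adjusted p = 0.000205) and by 5.32 ± 0.729 in CD206pos (adjusted p = 0.000114). CD206hi against CD206pos gave -0.29 ± 0.602 with an adjusted p of 0.95, higher in CD206hi in 2 of 5 tumours. Without CD206pos of tumour 11 the value was 0.0385.

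The balance of these neighbouring genes differed in its mean between populations, but the 1 call on it was lost in several other settings, given below. The log2 ratio of Mgl2 to Clec10a counts, with 0.5 added to each, averaged -2.48 ± 0.664 in CD206hi, -1.41 ± 0.689 in CD206pos and -0.67 ± 0.861 in CD206neg (SD, n = 5 each). Single libraries gave -2.55, -3.08, -1.58, -2.05 and -3.12 in CD206hi of tumours 5, 6, 8, 10 and 11. The CD206pos ratios of these tumours were -2.23, -1.51, -0.34, -1.32 and -1.63, and the CD206neg ratios were 0.17, -0.55, 0.09, -1.24 and -1.83. CD206hi was below CD206pos, and below CD206neg, in every tumour. The difference between CD206hi and CD206neg was -1.81 (exact two-sided permutation p = 0.0159, 0.0476 after adjustment over the 3 pairs). It was -0.74 between CD206pos and CD206neg (adjusted p = 0.175) and -1.07 between CD206hi and CD206pos (adjusted p = 0.0714), both by the same exact permutation test.

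The call on CD206hi against CD206neg could not be kept with tumour as a block, because 5 pairs allow no raw p below 0.0625. The exact sign permutation gave that smallest value, and an adjusted p of 0.0938. The call was lost without the CD206neg libraries of tumours 6 and 8 (-1.51, adjusted p = 0.0804, exact permutation) and without any 1 of the 5 tumours (-2.05 to -1.58, adjusted p 0.0857 to 0.171, where 4 libraries against 4 allow no raw p below 0.0286). How reads shared by paralogs were counted is not stated in the labels, so a ratio of 2 similar genes carries that uncertainty.

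**Figure D4:**
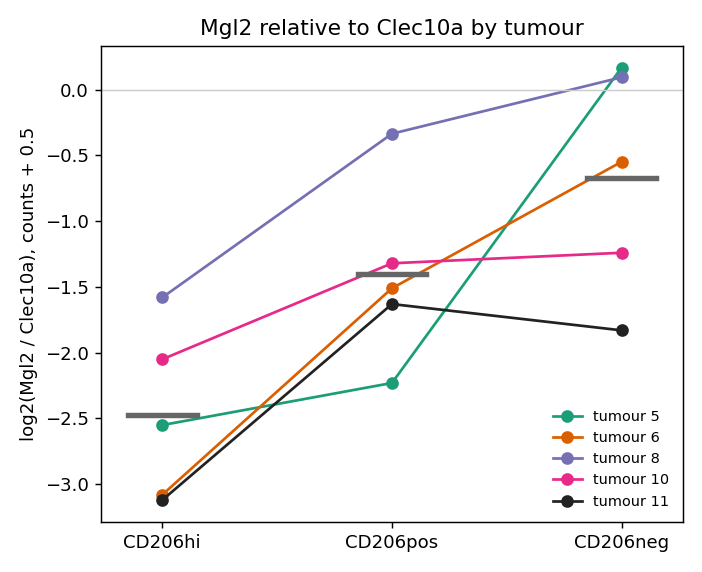
Log2 ratio of Mgl2 to Clec10a counts (0.5 added to each) in the 15 macrophage libraries, with lines joining the libraries of a tumour and grey bars at group means. The mean is -2.48 in CD206hi, -1.41 in CD206pos and -0.67 in CD206neg, and CD206neg spans 0.17 to -1.83.

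Il10, the anti-inflammatory cytokine, followed the lectins with smaller differences. CD206hi libraries had 380, 412, 107, 284 and 209 CPM in tumours 5, 6, 8, 10 and 11, CD206pos libraries 549, 557, 272, 459 and 299 CPM, and CD206neg libraries 67.1, 126, 121, 65.0 and 50.6 CPM. CD206pos lay wholly above CD206neg, whereas CD206hi of tumour 8 was below CD206neg of the same tumour. Il10 rose by 2.08 ± 0.396 on the log2 scale in CD206pos (edgeR adjusted p = 0.00173) and by 1.41 ± 0.388 in CD206hi (adjusted p = 0.025). The CD206hi call was lost without CD206hi of tumours 5, 6 or 11, CD206neg of tumours 5, 10 or 11, or the whole of tumours 5, 10 or 11, with log2 values of 1.19 to 1.36 and adjusted p between 0.0515 and 0.164. CD206hi was below CD206pos in 5 of 5 tumours, by a log2 value of -0.67 ± 0.382 with an adjusted p of 0.79.

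Arg1, the arginase, varied widely between the libraries of each macrophage population. It stood at 103, 169, 44.6, 29.5 and 5.73 CPM in CD206hi of tumours 5, 6, 8, 10 and 11, at 28.6, 13.8, 121, 10.98 and 3.18 CPM in CD206pos, and at 102, 6.89, 8.39, 14.1 and 15.3 CPM in CD206neg. The 3 groups overlapped, the highest library was from tumour 6 in CD206hi, tumour 8 in CD206pos and tumour 5 in CD206neg, and tumour 11 was lowest in both CD206-positive groups. No macrophage comparison passed the test: the log2 fold changes were 1.25 ± 0.782 for CD206hi against CD206neg (edgeR adjusted p = 0.41), 0.12 ± 0.775 for CD206pos against CD206neg (0.943) and 1.13 ± 0.779 for CD206hi against CD206pos (0.844). The second of these changed sign to -0.30 with tumour as a block and to -0.43 without the CD206neg libraries of tumours 6 and 8. Across libraries the correlations of Arg1 with the other 7 members lay between -0.297 and 0.0841 (Pearson's r of TMM-scaled log2 CPM over 15 libraries that share 5 tumours).

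Il4ra, the receptor chain for IL-4 and IL-13, stood at 530, 280, 229, 404 and 679 CPM in CD206hi, at 603, 130, 261, 273 and 381 CPM in CD206pos, and at 143, 122, 121, 153 and 146 CPM in CD206neg of tumours 5, 6, 8, 10 and 11. CD206neg was the most even group, every CD206hi library lay above it, and CD206pos overlapped with it through tumour 6. Il4ra rose by 1.51 ± 0.406 in CD206hi (edgeR adjusted p = 0.0212). That call was lost without the CD206neg libraries of tumours 6 and 8 (1.44, adjusted p = 0.122). Among single omissions it was lost without CD206hi of tumour 11, CD206neg of tumours 5 or 8, or the whole of tumours 5, 10 or 11 (log2 0.98 to 1.59, adjusted p 0.0597 to 0.102). In CD206pos the value was 1.02 ± 0.401 with an adjusted p of 0.0951, and 0.89 with an adjusted p of 0.0289 with tumour as a block. CD206pos was above CD206neg in 5 of 5 tumours. CD206hi against CD206pos gave 0.49 ± 0.398 (adjusted p = 0.883), and -0.0072 without CD206hi of tumour 11.

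Tgm2, transglutaminase 2, ran opposite to Retnla and the lectins. It stood at 337, 189, 203, 423 and 68.1 CPM in CD206hi, at 248, 145, 257, 223 and 113 CPM in CD206pos, and at 414, 237, 263, 617 and 396 CPM in CD206neg of tumours 5, 6, 8, 10 and 11. In each tumour CD206neg had the highest value, although the groups overlapped across tumours. Tgm2 fell by 1.23 on the log2 scale in CD206pos (standard error 0.323, edgeR adjusted p = 0.0153). That call was lost without CD206neg of tumour 10, or without the whole of tumours 6, 10 or 11, at log2 values of -1.26 to -1.03 and adjusted p between 0.0511 and 0.0579. In CD206hi the log2 fold change was -0.95 ± 0.321 with an adjusted p of 0.0712, and -0.99 with an adjusted p of 0.0171 with tumour as a block. It also passed without CD206hi of tumour 10 (-1.25, adjusted p = 0.0189) and without CD206neg of tumour 8 (-1.13, adjusted p = 0.0366). CD206hi against CD206pos gave 0.28 ± 0.318 (adjusted p = 0.92).

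The summed monocyte markers were higher in every library of both CD206-positive populations than in any CD206neg library. F13a1 made up much of the sum in the CD206-positive populations. It averaged 2028 ± 1080 CPM in CD206hi, 1654 ± 1410 CPM in CD206pos and 29.6 ± 26.3 CPM in CD206neg (SD, n = 5 each). Sums without F13a1 were not compared. Dendritic cell markers went both ways. The monocyte marker list, 9 of 10 genes measured, summed to 1138 to 3561 CPM in CD206hi, 845 to 4585 CPM in CD206pos and 158 to 515 CPM in CD206neg, and of its 8 tested genes 3 were higher and 1 lower in CD206hi and 6 were higher and 0 lower in CD206pos, each against CD206neg. Ccr2, the monocyte chemokine receptor, averaged 81.6 ± 16.3 CPM in CD206hi, 239 ± 66 CPM in CD206pos and 24.8 ± 17.6 CPM in CD206neg (SD, n = 5 each), whereas Ly6c2 was at or below 1.27 CPM in all 15. The dendritic cell list, 11 of 12 genes measured, summed to 52.9 to 307 CPM in CD206hi, 255 to 427 CPM in CD206pos and 107 to 378 CPM in CD206neg, and its defining factor Zbtb46 reached at most 4.44, 7.78 and 1.06 CPM in these 3 groups. Of its 9 tested genes 3 were higher and 3 lower in CD206hi, and 3 were higher and 1 lower in CD206pos, each against CD206neg. Cd209a, Irf4 and Kmo were the higher ones in both. Itgax, the integrin chain CD11c, averaged 16.7 ± 11.8 CPM in CD206hi, 31.3 ± 25.6 CPM in CD206pos and 106 ± 30.8 CPM in CD206neg (SD, n = 5 each), and was called lower in both. Ccr7, a chemokine receptor of migrating dendritic cells, averaged 1.46 ± 1.29, 3.88 ± 2.75 and 13.6 ± 3.74 CPM (SD) in those groups. Ccr7 was called lower in CD206hi. Without the CD206neg libraries of tumours 6 and 8 the calls higher and lower were 3 and 1 of monocyte and 3 and 2 of dendritic cell markers in CD206hi, and 4 and 0 and 4 and 1 in CD206pos. Chil3 and F13a1 are also on the monocyte list, and Cd209a and Irf4 on the dendritic cell list as well as on those described next. The part of such cells in the levels of Retnla, the lectins, Chil3 and Il10 was not tested.

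Genes around the 8 in the same pathways are read here against the shares of all genes called, 6.14% higher and 3.90% lower in CD206hi and 8.85% higher and 5.85% lower in CD206pos against CD206neg, and against medians over all genes of 0.0186 and 0.0181. Of the other components of IL-4 and IL-13 signalling, which include the receptor chains Il13ra1 and Il2rg, the JAK kinases and Stat6, 12 of 14 were measured and 10 tested. None was called in CD206hi against CD206neg and 1, Jak1, rose in CD206pos (log2 1.12 ± 0.285, edgeR adjusted p = 0.0133), and the list's median log2 fold changes were -0.15 and 0.205 in these comparisons. That 1 of 10 is near the share of all genes, and Jak1 did not pass without the CD206neg libraries of tumours 6 and 8 (adjusted p = 0.115). Stat6 averaged 96.8 ± 38.8 CPM in CD206hi, 81.5 ± 39.8 CPM in CD206pos and 97.2 ± 36 CPM in CD206neg (SD, n = 5 each). The ligand genes Il4 and Il13, the other 2 of the 14, were not analysed here.

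Among 12 transcription factors and chromatin regulators of the programme, 4 rose in CD206hi and 3 in CD206pos against CD206neg, and 0 fell, with medians of 0.55 and 0.73. Without those 2 CD206neg libraries 2 rose in each, Irf4 and Klf4. Irf4, a STAT6 target that drives several of these genes in mouse macrophages, averaged 8.46 ± 5.35 CPM in CD206hi, 22.9 ± 6.78 CPM in CD206pos and 1.53 ± 1.02 CPM in CD206neg (SD, n = 5 each). It rose by 2.38 ± 0.513 in CD206hi (edgeR adjusted p = 0.00521) and by 3.84 ± 0.524 in CD206pos (adjusted p = 0.000112). Klf4, another factor induced by IL-4, rose by 2.80 in both (standard error 0.472 in each).

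Of 18 tested genes that also mark IL-4-type activation, 10 rose and 1 fell in CD206hi, and 11 rose and 0 fell in CD206pos, against CD206neg, with medians of 1.23 and 2.31. With the CD206neg libraries of tumours 6 and 8 left out, the counts were 9 and 1 in CD206hi and 8 and 0 in CD206pos. Mrc1, the gene of the sort marker itself, is among them. Cd209a, a relative of the human lectin DC-SIGN that dendritic cells also express, averaged 110 ± 105 CPM in CD206hi, 131 ± 77.9 CPM in CD206pos and 0.326 ± 0.378 CPM in CD206neg, and the chemokine Ccl24 averaged 91.1 ± 55.3, 136 ± 35.4 and 0.541 ± 0.294 CPM in those groups (SD, n = 5 each). Ccl22, a chemokine that dendritic cells also make, fell in CD206hi by 3.37 on the log2 scale (standard error 0.693, edgeR adjusted p = 0.00359).

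Of 12 tested genes of arginine and polyamine metabolism, 0 rose and 2 fell in CD206hi, and 1 rose and 4 fell in CD206pos, against CD206neg, with medians of -0.52 and -0.56, where 6.14% of all genes rose and 3.90% fell in CD206hi and 8.85% rose and 5.85% fell in CD206pos. Without the CD206neg libraries of tumours 6 and 8, 0 rose and 2 fell of 14 tested in CD206hi, and 0 rose and 5 fell in CD206pos. Ass1, which rebuilds arginine from citrulline, fell by 1.88 in CD206hi and by 2.48 in CD206pos on the log2 scale (edgeR adjusted p = 0.0156 and 0.00256). Odc1, which turns ornithine into putrescine, was the one that rose in CD206pos (0.88 ± 0.27, adjusted p = 0.0345; 0.166 without those 2 libraries). Nos2, the inducible nitric oxide synthase that competes with arginase for arginine, averaged 0.609 ± 0.424 CPM in CD206hi, 0.0212 ± 0.0475 CPM in CD206pos and 2.22 ± 3.38 CPM in CD206neg (SD, n = 5 each). Arg2, the other arginase gene, averaged 6.46 ± 3.95 CPM in CD206hi, 13.3 ± 10.8 CPM in CD206pos and 11.6 ± 10.1 CPM in CD206neg (SD, n = 5 each).

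Of 15 tested genes of IL-10 production and response, 2 rose and 2 fell in CD206hi, and 3 rose and 0 fell in CD206pos, against CD206neg, with medians of 0.0152 and 0.0603, where all genes had 0.0186 and 0.0181 and shares of 6.14% higher and 3.90% lower, and 8.85% and 5.85%. Maf, a transcription factor that drives Il10 in macrophages, rose by 2.27 ± 0.266 in CD206hi (edgeR adjusted p = 3.95e-05) and by 2.24 ± 0.266 in CD206pos (adjusted p = 4.44e-05). Of 18 tested genes of classical activation, 0 rose and 4 fell in CD206hi, and 2 rose and 2 fell in CD206pos, with medians of -0.75 and -0.44. Il12b, a subunit of interleukins 12 and 23, averaged 10.5 ± 11.3 CPM in CD206hi, 18.2 ± 16.5 CPM in CD206pos and 146 ± 64.8 CPM in CD206neg (SD, n = 5 each), and was among those that fell in both. Il6 rose in CD206pos by 1.83 ± 0.473 (adjusted p = 0.0142). Of 8 tested relatives of the members, 2 rose and 1 fell in CD206hi, and 3 rose and 0 fell in CD206pos, with medians of 0.17 and 0.50. The transglutaminase relatives F13a1 and Tgm1 rose in both CD206-positive groups, F13a1 by 6.13 ± 0.727 in CD206hi and 5.68 ± 0.712 in CD206pos, whereas Tgm2 did not rise in either. Without the CD206neg libraries of tumours 6 and 8, in CD206hi 1 rose and 2 fell of the IL-10 list, 0 rose and 2 fell of the classical list and 1 rose and 1 fell of the relatives, with Tgm1 no longer passing (adjusted p = 0.102). In CD206pos the counts were 1 and 0, 2 and 3, and 3 and 0, in the same order of lists. None of these 7 lists had a gene called between CD206hi and CD206pos.

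Against the other sorted lineages, macrophages, taken as the mean of their 3 populations, were higher for all 8 genes. Compared with CAFs 8 of 8 rose, where 30.8% of all 13610 genes were called higher and 37.3% lower. Compared with endothelial cells 8 of 8 rose too, where 24.7% were called higher and 36.5% lower. For Chil3 both calls rested on CD206pos, which averaged 3.21 CPM and alone took the gene past the filter on low counts. CD206hi and CD206neg averaged 0.195 and 0.226 CPM of Chil3, under the 3-count limit. Retnla, Chil3, Mgl2, Clec10a and Il10 were low outside macrophages. Retnla did not exceed 1.12 CPM in endothelial cells, 1.22 CPM in CAF1 and 1.67 CPM in CAF2, Clec10a did not exceed 1.20 CPM and Mgl2 did not exceed 0.450 CPM in any of these 15 libraries. Il10 reached 3.42 CPM, or 34 counts, in CAF1, and 0.749 CPM in endothelial cells. Every CAF1 library lay above every CAF2 library for Il10, but only by 2 counts in CAF1 of tumour 10 against at most 1 count in CAF2. Both lie under the 3-count limit, and the filter on low counts kept Il10 out of the main test between CAF1 and CAF2. The highest counts were 20 for Retnla, 12 for Clec10a, 4 for Mgl2 and 1 for Chil3. The macrophage marker list summed to 69.2 to 182 CPM in endothelial cells, 139 to 215 CPM in CAF1 and 76.3 to 110 CPM in CAF2, and how far such RNA accounts for those counts was not tested. No fold is given for genes at this level.

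The 3 members with measurable levels in every lineage each had their own order there. Tgm2 stood at 186, 136, 95.8, 110 and 205 CPM in endothelial cells of tumours 5, 6, 8, 10 and 11, at 62.2, 32.6, 64.4, 36.1 and 27.8 CPM in CAF1, and at 96.7, 50.1, 54.8, 36.8 and 51.8 CPM in CAF2. Endothelial cells lay above CAF1 throughout and met CAF2 only through 1 library of each. Tgm2 rose in macrophages by 1.54 ± 0.272 against endothelial cells (edgeR adjusted p = 1.43e-05) and by 2.69 ± 0.218 against CAFs (adjusted p = 4.06e-12), and in endothelial cells by 1.15 ± 0.254 against CAFs (adjusted p = 0.000467). It was 1 of 2 members called between endothelial cells and CAFs, 1 higher and 1 lower, where 23.0% of all genes were called higher and 22.1% lower.

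Il4ra was broadly present. It stood at 95.8, 95.2, 35.7, 83.7 and 92.1 CPM in endothelial cells, at 126, 120, 43.9, 114 and 93.6 CPM in CAF1 and at 287, 185, 121, 78.0 and 90.4 CPM in CAF2. All 3 groups overlapped with one another, and CAF2 of tumours 5 and 6 exceeded every CD206neg library. Il4ra rose in macrophages by 1.49 ± 0.289 against CAFs (edgeR adjusted p = 4.24e-05) and by 2.51 ± 0.41 against endothelial cells (adjusted p = 4.45e-06), and fell in endothelial cells by 1.02 against CAFs (standard error 0.387, adjusted p = 0.0315). The last call was lost without endothelial cells of tumours 8 or 10, CAF1 of tumour 11, CAF2 of tumour 5, or the whole of tumours 5, 6 or 10 (log2 -1.09 to -0.83, adjusted p 0.0515 to 0.0851). Of its partner chains, Il2rg averaged 238 ± 35.5 CPM in endothelial cells, 56.6 ± 41.8 CPM in CAF1 and 1.68 ± 0.911 CPM in CAF2, and Il13ra1 averaged 106 ± 28.7, 107 ± 37.9 and 151 ± 45.8 CPM in those groups (SD, n = 5 each). Il2rg rose by 5.01 ± 0.529 in CAF1 against CAF2 (adjusted p = 5.36e-05). Epithelial markers summed to 701.5 to 5969 CPM in CAF1 and 17.8 to 726 CPM in CAF2. Pericyte markers summed to 375 to 2178 CPM in CAF1 and 85.3 to 125 CPM in CAF2. The part of such cells in the Il2rg difference was not tested.

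Arg1 was also found outside macrophages. It stood at 4.21, 24.3, 41.7, 1.62 and 14.7 CPM in endothelial cells of tumours 5, 6, 8, 10 and 11, at 18.6, 11.4, 18.7, 5.96 and 2.57 CPM in CAF1 and at 0.100, 5.61, 0.278, 0.0836 and 0.575 CPM in CAF2. CAF1 exceeded CAF2 in every tumour, with an overlap across tumours through tumour 6 of CAF2. Between CAF1 and CAF2 the filter on low counts left 3 of the 8 genes, and 1 of them, Arg1, rose in CAF1 by 3.02 ± 0.937 (edgeR adjusted p = 0.0391), where 10.9% of all 12149 genes were called higher and 8.59% lower. Arg1 passed that filter through CAF1, with 21 to 203 counts, against 1 to 48 counts in CAF2. Its call is therefore not independent of the filter. That call was lost without CAF1 of tumours 5, 6 or 8, CAF2 of tumours 5, 8, 10 or 11, or the whole of tumours 5, 8, 10 or 11 (log2 2.49 to 3.04, adjusted p 0.0596 to 0.147). Il4ra and Tgm2 gave -0.46 ± 0.374 and -0.31 ± 0.222 (adjusted p = 0.454 and 0.389).

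Macrophages exceeded CAFs in Arg1 by 3.58 ± 0.672 on the log2 scale (edgeR adjusted p = 2.57e-05) and endothelial cells by 1.83 ± 0.779 (adjusted p = 0.0425), with macrophages higher than endothelial cells in 3 tumours and lower in 2. The endothelial comparison lost its call without endothelial cells of tumours 5, 10 or 11, CD206hi of tumours 5 or 6, CD206pos of tumour 8, CD206neg of tumour 5, or the whole of tumours 5, 10 or 11 (log2 1.29 to 2.05, adjusted p 0.0513 to 0.189). Endothelial cells against CAFs gave 1.75 ± 0.766 with an adjusted p of 0.0634, and 1.76 with an adjusted p of 0.0353 with tumour as a block. It also passed without endothelial cells of tumours 5 or 10, CAF2 of tumour 6 or the whole of tumour 6 (log2 1.99 to 2.91, adjusted p 0.00377 to 0.044). Markers of tumour epithelium summed to 591 to 6262 CPM in endothelial cells, 701 to 5969 CPM in CAF1 and 17.8 to 726 CPM in CAF2, and their part in the Arg1 levels was not tested. Nos2 averaged 0.95 ± 2.06 CPM over the 15 macrophage libraries, against 24.4 ± 8.19 CPM in endothelial cells (SD in both).

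Across the 15 macrophage libraries, 4 members, Retnla, Il10, Mgl2 and Clec10a, varied together. Pearson's r of TMM-scaled log2 CPM was 0.928 between Mgl2 and Clec10a, 0.907 between Retnla and Il10, 0.909 between Il10 and Clec10a and 0.88 between Retnla and either lectin. With the group means taken out, so that only differences between tumours remain, these fell to 0.804, 0.696, 0.742, 0.441 with Mgl2 and 0.592 with Clec10a. Tgm2 ran against them, at -0.834 with Mgl2, -0.797 with Clec10a and -0.722 with Retnla. Retnla and Arg1 gave -0.297 over all and -0.711 within groups. When those 2 CD206neg libraries, of tumours 6 and 8, were left out, the 5 positive values were 0.869 to 0.936 over 13 libraries, and within groups 0.811, 0.564, 0.753, 0.236 and 0.566 in the order given. These values describe libraries that share 5 tumours.

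The genes most like each member over the same 15 libraries were Clec2g, BC064078 and Bfsp1 for Retnla (r of 0.974, 0.957 and 0.956), Cd226, Tarm1 and Pdcd1lg2 for Chil3 (0.87, 0.862 and 0.859) and Stxbp6, Gm15987 and Irf4 for Mgl2 (0.958, 0.95 and 0.947). They were Ccl9, Ccl6 and Iqgap2 for Clec10a (0.987, 0.986 and 0.982), Nrg1, Dusp23 and Cd2 for Il10 (0.966, 0.963 and 0.955) and Tcn2, Tnfrsf1a and Ap2m1 for Il4ra (0.962, 0.959 and 0.951). For Tgm2 they were Dnajb11, Cct5 and Cct8 (0.909, 0.905 and 0.904), and for Arg1 Zfp563, Cdhr3 and Wdr48 (0.807, 0.8 and 0.774). The chemokine Ccl6, for example, averaged 5315 ± 3520 CPM in CD206hi, 7101 ± 2860 CPM in CD206pos and 237 ± 48.7 CPM in CD206neg (SD, n = 5 each).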

How the data were processed

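Per the labels, sorted cells came from collagenase digests, cDNA was amplified by SMARTseq v4, and all libraries shared 3 lanes. The submitters' processing notes name Trimmomatic 0.36, HISAT2 2.0.4, SAMtools 1.3.1, DESeq2 1.26 and mm10. The counter, strand setting and handling of shared reads are not given in the labels or notes, so values of the paralogs Mgl2 and Clec10a, and of Chil3 with its near copies, are uncertain in how reads were divided. The deposited raw values are counts per Entrez gene. The authors' deposited normalised values, a signal, equal those counts divided by 1 size factor per library, and were used for a limma alternative only. A symbol was matched for 14104 of 14118 genes.

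Libraries were grouped by their labels. Counts were filtered with filterByExpr, TMM-scaled and tested with edgeR 4.0.16 (quasi-likelihood, R 4.3.3), with Benjamini-Hochberg adjustment over all genes at 0.05, in 3 fits: 15 macrophage, 10 fibroblast and all 30 libraries. CPM use library totals, and RPKM divide by the union of GENCODE exons. SE is the log2 fold change divided by the square root of F. Ratios of Mgl2 to Clec10a were compared by exact permutation tests. Genes with no library above 3 counts in a group got no fold. Limits of 3 counts cover counting error only.

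Populations of a tumour come from 1 animal, so the tumour number pairs libraries; deviations from group means of same-tumour libraries correlated by 0.111 to 0.648 in the macrophage fit and by 0.0205 to 0.381 in the fibroblast fit. Other settings were DESeq2 1.42.0, tumour as a block, limma 3.58.1 (log2 of the authors' values plus 1), RLE scaling, no filter, all 30 libraries in 1 fit, omission of the CD206neg libraries of tumours 6 and 8 (for lists, overlaps and correlations chosen after the data were seen), and omission of each library or tumour. The fits were tested on simulated data.

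Named genes were the 8 members, up to 3 called genes per pathway list and direction averaging 5 CPM or more on the higher side, and the 3 genes with the highest correlation to each member. Arg2, Stat6, Il13ra1, Il2rg and Nos2 levels, Ccr2, Ly6c2, Zbtb46, Itgax, Ccr7, Kmo and H2-Aa were named beyond that rule or as markers, after values were seen. Members and lists were chosen with earlier results of these data known.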

Additional observations from a re-analysis of the deposited data

Results flagged for a closer look

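Dixon's criterion at 95% was applied to CPM in 40 groups of 5 libraries with more than 3 counts in at least 1 library. The 7 values named here stood apart from the other 4 libraries of their group. Chance flags about 1 in 20 groups where values are normally distributed, a rate that need not hold for skewed CPM. The criterion was not applied on a log scale. Retnla in CD206hi of tumour 11 was 1618 CPM, against 72.6 to 452 CPM in the other tumours. Arg1 gave 3 of the 7. It stood at 121 CPM in CD206pos of tumour 8, against 3.18 to 28.6 CPM in the others, at 102 CPM in CD206neg of tumour 5, against 6.89 to 15.3 CPM, and at 5.61 CPM in CAF2 of tumour 6, against 0.0836 to 0.575 CPM. Il4ra in endothelial cells of tumour 8 was 35.7 CPM, against 83.7 to 95.8 CPM. The remaining 2 are values of few counts, Il10 at 0.749 CPM in endothelial cells of tumour 6 and Mgl2 at 0.450 CPM in CAF1 of tumour 10.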

How the results depend on the processing

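With tumour as a replicate block, genes called numbered 1791 in CD206hi against CD206neg, 2800 in CD206pos against CD206neg and 97 in CD206hi against CD206pos; besides the calls given above on Tgm2, Il4ra and Arg1, the block changed no call on a member. DESeq2 called 83 genes, and the fit of all 30 libraries 36, between CD206hi and CD206pos. Without the CD206neg libraries of tumours 6 and 8, 545 genes were called in CD206hi and 930 in CD206pos against CD206neg. In CAF1 against CAF2, 2 members were called with no filter and 2 in the fit of all 30 libraries. Both settings also tested members that the filter of the main fit had left out. Arg1 in CD206pos against CD206neg turned negative with the block (-0.30), with limma (-0.10) and without those CD206neg libraries (-0.43), and ranged from -1.18 to 1.12 when each library or tumour was left out. Tgm2 in CD206hi against CD206neg passed with DESeq2 (adjusted p = 0.0216), limma (0.0498) and all 30 libraries (0.0437). The Mgl2 to Clec10a difference of CD206hi against CD206neg stayed at -1.81 with the block (adjusted p = 0.0938, exact permutation) and was -1.51 without the 2 CD206neg libraries. Leaving out each library or tumour gave 535 to 1164 genes and 2 to 6 members called in CD206hi against CD206neg, 765 to 2070 and 5 to 6 in CD206pos against CD206neg, 0 to 48 and 0 to 1 in CD206hi against CD206pos, 0 to 1 members in CAF1 against CAF2, 1 to 3 in endothelial cells against CAFs, and ratio differences of -2.05 to -1.58 for CD206hi against CD206neg. CD206hi against CD206pos then ranged from -0.999 to 0.0385 for Clec10a, positive only without CD206pos of tumour 11, and from -0.0072 (without CD206hi of tumour 11) to 0.76 for Il4ra. The cause of these changes was not tested. Depth limits statements on Chil3, with at most 38 counts in any library.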
